A study of Mus musculus with 2 samples.

Results

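LINE element transcripts were the run-on transcripts that the deposited repeat annotation placed in a long interspersed nuclear element (LINE). They made up 1370 of the 43122 transcripts called in control bone marrow-derived macrophages (BMDMs), a share of 3.18% (95% Wilson interval 3.02 to 3.35). After 1 hr of IL-4 they made up 1736 of 51365, or 3.38% (3.23 to 3.54). The global run-on sequencing (GRO-seq) compared nascent RNA in BMDMs of wild-type C57BL/6 mice aged 8 to 12 weeks. Bone marrow cells were differentiated for 6 days with L929 supernatant as the source of M-CSF and were left untreated (control) or given 20 ng/ml IL-4 for 1 hr. Duplicate run-on reactions with Br-UTP were pooled, so each condition was 1 library with no replicate check and no test. The intervals cover the counting of transcripts only, neighbouring transcripts of a gene are not independent, and the read depth is unknown because the files hold no counts.

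LINEs are retrotransposons that copy themselves through an RNA intermediate, and L1 is the family still active in mice. The L1Md subfamilies include the youngest mouse L1 copies, and the Lx, L1_Mus, L1_Mur and L1VL names mark older rodent L1. Most of the remaining L1, L2 and CR1 names mark elements shared by many mammals. The few transcripts named L1_Mm and MusHAL1, which are mouse names, were counted with the remaining L1, called older L1 here. Most copies are truncated and silenced by repressive chromatin, and those in introns are transcribed as a passenger of the host gene's pre-mRNA. IL-4 drives alternative macrophage polarization through the transcription factor STAT6.

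The bases of these transcripts could be read for only 49 control and 50 IL-4 LINE transcripts, those lying wholly in an annotated exon on their own strand, mostly retained introns and noncoding RNAs (GENCODE release M21, GRCm38, the assembly also called mm10). The 6 below show subfamilies from L1Md to older L1, called in both libraries or in only 1 of them, each 5′ to 3′ on the transcribed strand. Capitals mark runs of at least 5 T, the hexamer AATAAA (the polyadenylation signal) and TTAAAA (the preferred target of the L1 endonuclease).
Gm8995 L1_Mus1 (chr7:106504275-106504366, - strand): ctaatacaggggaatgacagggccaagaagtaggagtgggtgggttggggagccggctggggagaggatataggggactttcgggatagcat
Trim12a Lx7 (chr7:104312659-104312867, - strand): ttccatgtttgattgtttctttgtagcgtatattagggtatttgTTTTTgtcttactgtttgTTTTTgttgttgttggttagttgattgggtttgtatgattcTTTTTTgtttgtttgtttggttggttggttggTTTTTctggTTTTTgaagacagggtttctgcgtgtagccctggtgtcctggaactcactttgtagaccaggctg
Fchsd2 Lx3C (chr7:101261368-101261654, + strand): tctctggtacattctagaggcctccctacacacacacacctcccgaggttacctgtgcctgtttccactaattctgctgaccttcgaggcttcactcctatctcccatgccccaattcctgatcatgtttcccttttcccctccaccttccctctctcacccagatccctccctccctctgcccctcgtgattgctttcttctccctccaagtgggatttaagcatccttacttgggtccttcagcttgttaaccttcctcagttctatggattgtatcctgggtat
Mir99ahg L1Md_F2 (chr16:77363063-77363246, + strand): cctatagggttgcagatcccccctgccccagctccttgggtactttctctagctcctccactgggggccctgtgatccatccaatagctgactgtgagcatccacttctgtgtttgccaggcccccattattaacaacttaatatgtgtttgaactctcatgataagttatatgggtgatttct
Aoah L1M4a1 (chr13:20801542-20801787, + strand): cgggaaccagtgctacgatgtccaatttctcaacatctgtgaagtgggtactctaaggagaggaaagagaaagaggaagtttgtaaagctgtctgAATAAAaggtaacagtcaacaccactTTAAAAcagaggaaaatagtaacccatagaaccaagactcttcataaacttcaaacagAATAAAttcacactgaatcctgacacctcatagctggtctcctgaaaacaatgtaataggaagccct
Clec12a Lx5c (chr6:129356943-129357115, + strand): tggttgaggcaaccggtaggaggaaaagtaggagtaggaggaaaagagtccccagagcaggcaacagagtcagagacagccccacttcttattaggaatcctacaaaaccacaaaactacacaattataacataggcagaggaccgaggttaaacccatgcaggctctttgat

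The first pair was found in both libraries. The L1_Mus1 transcript in the noncoding RNA Gm8995 scored 2.0 in control and 1.5 after IL-4. The Lx7 transcript in Trim12a, a TRIM family gene, scored 1.3 and 1.0, and 51.2% of its bases were T. The Fchsd2 and Mir99ahg transcripts were called only after IL-4, at 0.7 and 0.3, and the Aoah and Clec12a transcripts only in control, at 0.4 and 0.2. The last pair was A-rich, with 38.6% and 36.4% A against 21.5% and 16.8% T.

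LINE transcripts with a readable sequence carried more T than transcripts without a repeat. The median T content was 34.5% of bases in control and 35.6% after IL-4, against 26.7% and 27.6% in intron and intergenic transcripts without a repeat in the same kind of exon (1291 and 1390 transcripts). A had medians of 20.0% and 19.8% in LINE transcripts and 19.4% and 21.3% in those without a repeat. T exceeded A in 35 of 49 and 41 of 50 LINE transcripts, and in 971 of 1291 and 1055 of 1390 without a repeat. SINE transcripts had median T contents of 34.9% and 35.2%, so the T content was not particular to LINEs.

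Motifs were counted in the central 100 bases, on both strands, with overlapping matches of different motifs each counted. The STAT6 site, TTC and GAA separated by any 4 bases, was in 0 of 43 control windows and 0 of 47 IL-4 windows, counts that allow shares of up to 6.98% and 6.38%. It was in 1.28% and 2.13% of all intron and intergenic windows in exons, so a difference was not detectable at this number. AATAAA was in 6 of 43 (14.0%, 6.56 to 27.3) and 10 of 47 (21.3%, 12.0 to 34.9) LINE windows, against 6.98% and 8.67% of all windows. In SINE windows its shares were 7.47% in control and 13.5% after IL-4. Matches on the opposite strand were included, so a match need not be a polyadenylation signal of the transcript. TTAAAA was in 11.6% and 12.8% of LINE windows against 8.07% and 10.1%, and the ETS core GGAAGT, the motif type bound by the macrophage factor PU.1, in 6.98% and 4.26% against 5.32% and 5.20%. Each match is a letter pattern and not a bound site.

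Every LINE transcript was intronic or intergenic, because the annotation names a repeat only in those classes. Introns held 1209 of 1370 in control (88.2%) and 1551 of 1736 after IL-4 (89.3%), and the other 161 and 185 were intergenic. LINEs were 4.36% of all intron transcripts in control and 4.63% after IL-4, and 5.05% and 5.29% of all intergenic transcripts. The shares of SINE transcripts were larger, at 8.91% and 10.3% of all transcripts, and LTR transcripts were near LINEs, at 3.46% and 3.50%. By length, LINE transcripts covered 2.72% of all called bases in control and 3.05% after IL-4.

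The LINE calls followed the direction of the host gene. A GENCODE gene on the same strand held the midpoint of 98.3% of intronic LINE transcripts in control and 99.1% after IL-4, beside 97.5% and 97.8% of all intron transcripts. Of the intergenic LINE transcripts, 41.0% and 39.5% lay in such a gene, beside 43.4% and 41.3% of all intergenic transcripts. In all, 21 control and 15 IL-4 LINE transcripts were only antisense to a gene, and 95 and 111 lay in no annotated gene.

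Intronic LINE transcripts lay farther from gene starts than intron transcripts as a whole. Only 31.5% (29.0 to 34.2) of the intronic ones in control and 30.1% (27.9 to 32.4) after IL-4 were in the first intron, against 39.1% and 39.6% of all intron transcripts. The median distance of intronic LINE transcripts to the nearest start site was 26428 bp and 28817 bp, against 15168 bp and 15720 bp for all intron transcripts. The median length of the genes that held LINE transcripts was 84.9 kb in control and 78.4 kb after IL-4. For all genes holding a transcript it was 24.7 kb and 23.5 kb. The genes with LINE transcripts also held more transcripts, with medians of 10 and 12 against 2 and 2 for all genes. A gene with many transcripts is more likely to hold any class of them, so the lengths cannot show a trait of LINEs. Genes with similar numbers of transcripts were not compared. By group, the first-intron share was 38.0% and 43.0% for L2, 37.8% and 35.3% for older L1, and 27.7% and 26.2% for other rodent L1. The share of L2 and older L1 was thus nearer that of all intron transcripts. For LTR transcripts the first-intron share was 35.7% and 34.7%, so a share under that of all intron transcripts was not particular to LINEs.

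L1 supplied 1225 control LINE transcripts (89.4%) and 1554 after IL-4 (89.5%). L2 supplied 136 and 167, and CR1 supplied 9 and 14. A single RTE-X transcript, L4_A_Mam in the first intron of Mitf, a gene for a transcription factor of macrophages and melanocytes, was called after IL-4 at a score of 0.1. Within L1, other rodent subfamilies led with 827 and 1037 transcripts, older L1 held 357 and 466, and L1Md held 41 and 51. The share of LINE transcripts that were L1Md was 2.99% (2.21 to 4.03) in control and 2.94% (2.24 to 3.84) after IL-4. Most L1Md transcripts were L1Md_F2, with 27 and 38, followed by L1Md_F3 with 7 and 5. L1Md_F had 3 and 4, L1Md_T 3 and 3, and L1Md_A 1 and 1. The ages of these names were not compared, so the group is not read as young L1 alone.

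By name, 111 subfamilies were found in each library and 102 in both. Of those 102, 67 had more transcripts after IL-4, 18 had fewer and 17 had the same number, beside a rise in the number of all transcripts from 43122 to 51365. Lx7 and Lx9 each had 70 in control, then 87 and 81 after IL-4. L1_Mur3 had 57 and 76, Lx8 had 54 and 75, and L2a had 52 and 53. The family composition was thus close in both libraries, with each L1 share inside the interval of the other.

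The score is the value the transcript caller gave each transcript, printed to 1 decimal. The median LINE score was 0.3 in control and 0.2 after IL-4, the same as for all transcripts. The median length was 197.5 bp and 286 bp, against 227 bp and 312 bp for all transcripts. Scores of at least 1 were found in 113 control LINE transcripts (8.25%, 6.91 to 9.82) and in 77 after IL-4 (4.44%, 3.56 to 5.51), against 7.33% and 3.85% of all transcripts. The LINE share lay between 2.64% and 3.80% in every score class in control and between 2.98% and 4.0% after IL-4.

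**Figure D1:**
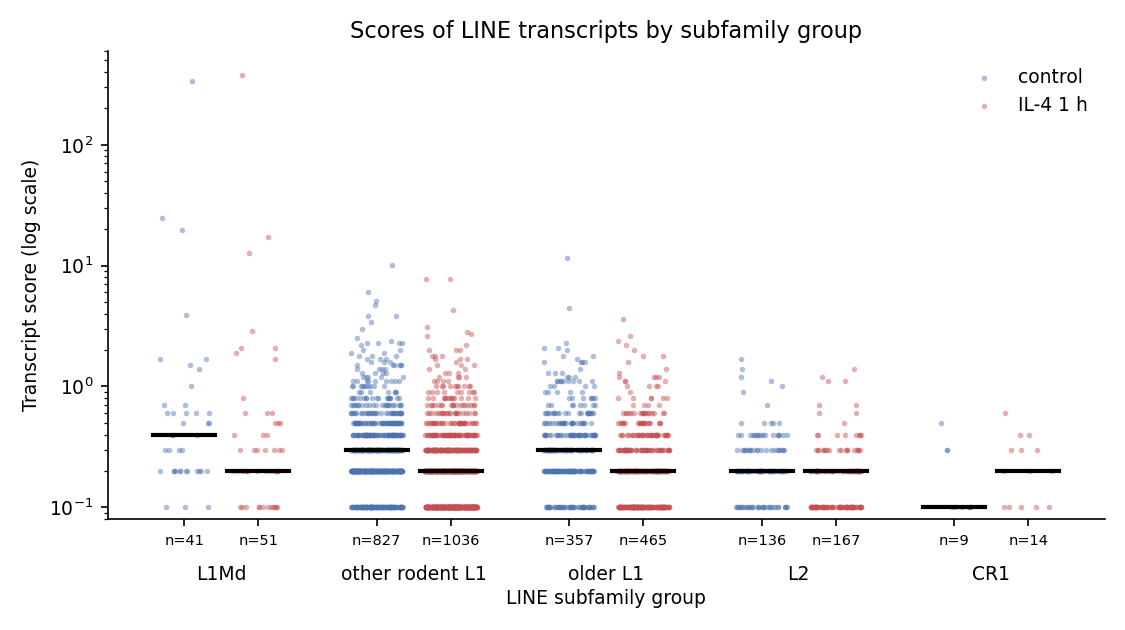
Scores of LINE transcripts (log scale) by subfamily group, with 1 point for each transcript, a black bar for the median and n below. The medians lie between 0.1 and 0.4 in every group, and the 3 highest points of each library are L1Md. 2 IL-4 transcripts with a score of 0 and the single RTE-X transcript are not drawn.

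L1Md held the highest scores in both libraries. An L1Md_F3 transcript of 58 bp at chr2:90395134-90395191 on the minus strand, outside any annotated gene, scored 334 in control and 379.1 after IL-4. It carried 35.0% of the summed LINE score in control and 41.0% after IL-4. Of the score multiplied by length it carried 14.1% in control and 12.3% after IL-4, so the direction between the libraries depended on the measure. An L1Md_F2 transcript at chr1:100180108-100180226, antisense to Cntnap5b, scored 24.6 and 17.4. Another L1Md_F2 transcript of 48 bp at chr2:142196821-142196868, in an intron of the ADP-ribosylhydrolase gene Macrod2, scored 19.6 and 12.6.

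These 3 stood far from other transcription. No other transcript on their strand lay within 10 kb, and Macrod2 as a whole held 3 transcripts in control and 2 after IL-4. Scores of at least 1 were found in 9 of 41 L1Md transcripts in control (22.0%, 12.0 to 36.7) and in 8 of 51 after IL-4 (15.7%, 8.17 to 28.0). A length under 60 bp was found in 14.6% and 9.80% of L1Md transcripts, against 2.77% and 1.21% of all LINE transcripts and 2.08% and 0.619% of the other transcripts. Reads from near-identical copies of an element cannot be assigned with certainty, so the position and the score of each L1Md transcript are uncertain.

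Other high scores came from both gene introns and gene-free sequence. An L1ME3E transcript in the second intron of Lmo2, a gene for a haematopoietic transcription adaptor, scored 11.5 in control, and the overlapping IL-4 transcript scored 6.6 and was centred outside the repeat. An Lx9 transcript of 54 bp at chr2:108165429-108165482, in no annotated gene, scored 10.2 and 7.7. An Lx6 transcript in the second intron of Wdfy2, a gene for an endosomal protein, scored 3.0 and 7.8. Among L2, the highest scores were 1.7 for an L2b transcript in Slc6a6, the taurine transporter, in control and 1.4 for an L2c transcript in Srrm2, a splicing factor gene, after IL-4. No CR1 transcript scored over 0.6.

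LINE transcripts with no same-strand gene and no same-strand neighbour within 10 kb numbered 38 in control and 32 after IL-4. L1Md supplied 7 and 8 of them, and 19 and 16 overlapped a transcript of the other library. The median score was 0.5 in control and 0.2 after IL-4. With genes included, 257 LINE transcripts in control (18.8%) and 212 after IL-4 (12.2%) had no same-strand neighbour within 10 kb, against 20.4% and 17.2% of the other transcripts. A neighbour within 1 kb was found for 32.0% of all LINE transcripts in control and 48.7% after IL-4, against 35.7% and 46.5% of all transcripts.

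LINE transcripts were matched between the libraries less completely than transcripts as a whole, and about as completely as LTR transcripts. A counterpart is any transcript of the other library that overlaps on the same strand. None was found for 652 control LINE transcripts (47.6%, 45.0 to 50.2) and 1032 IL-4 LINE transcripts (59.4%, 57.1 to 61.7), against 37.4% and 48.1% of all transcripts. Among intron transcripts as a whole the shares were 40.8% and 50.6%, among SINE transcripts 45.7% and 53.2%, and among LTR transcripts 49.6% and 58.3%. Of the LINE transcripts with a counterpart, 74.9% in control and 76.1% after IL-4 met a LINE transcript, so the rest met one centred on other sequence. With scores of at least 0.3 alone, the shares of LINE transcripts without a counterpart were 32.9% and 30.9%, so the order of the libraries turned. The share of all transcripts was not worked out at this limit. Whether the turn, or the less complete matching at this limit, is particular to LINEs is therefore unknown.

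In control, the highest-scoring LINE transcript without a counterpart was L1MEg in the first intron of Gpnmb, a gene for a lysosomal and melanosomal glycoprotein, at 2.1. Lx2 in Cd180, the gene for a TLR-related receptor, followed at 1.7. Lx5 in Phlpp1, a phosphatase gene, scored 1.1, Lx8 in Plekhm3 scored 1.0 and L1_Mus2 near Tnfrsf14 scored 1.0. Cd180 went from 16 transcripts to 2 and Plekhm3 from 23 to 4, so whole genes and not LINEs alone lost calls there. After IL-4, Lx5c in Sgcd led at 1.3 with a length of 40 bp, followed by L1_Mus3 near Cd200r4 at 1.0 and Lx5c in Btbd1 at 1.0, each of 36 bp. Lx8b in Clcn5, an endosomal chloride-proton exchanger gene, scored 0.9 and L1Md_T near Tmem38b scored 0.8.

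For a score ratio, transcripts were paired where each was the other's largest overlap, and the median log2 ratio (IL-4 to control) over all 26395 pairs with scores above 0, which was -0.32, was subtracted from each. In bulk cells, fewer cells of a type and less RNA per cell cannot be told apart. LINE was named in both members of 533 pairs, and 528 of these carried the same subfamily name. A further 174 pairs were LINE in control only and 164 after IL-4 only. LINE pairs at least 2-fold higher after IL-4 numbered 57 (10.7%), against 10.3% of all pairs. LINE pairs at least 2-fold lower numbered 73 (13.7%), against 11.5% of all pairs. By score, both LINE shares lay near those of all pairs, and near the 10.2% and 13.3% of all intron pairs. By score multiplied by length, 14.8% of LINE pairs were higher and 19.3% lower, against 19.2% and 17.1% of all pairs. Intron pairs were not worked out at that setting.

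Because scores carry 1 decimal, many low scores cannot show a 2-fold change. With the change required over the whole range that rounding allows, 27 LINE pairs were higher (5.07%, against 3.86% of all pairs) and 24 were lower (4.50%, against 3.21%). The median centred log2 ratio of LINE pairs was -0.09 (interval of the median -0.26 to 0). Intron LINE pairs had 52 higher and 60 lower of 463, and intergenic ones 5 higher and 13 lower of 70. By group, the counts higher and lower were 3 and 3 of 19 for L1Md, 37 and 49 of 351 for other rodent L1, 15 and 11 of 124 for older L1, and 2 and 8 of 36 for L2.

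**Figure D2:**
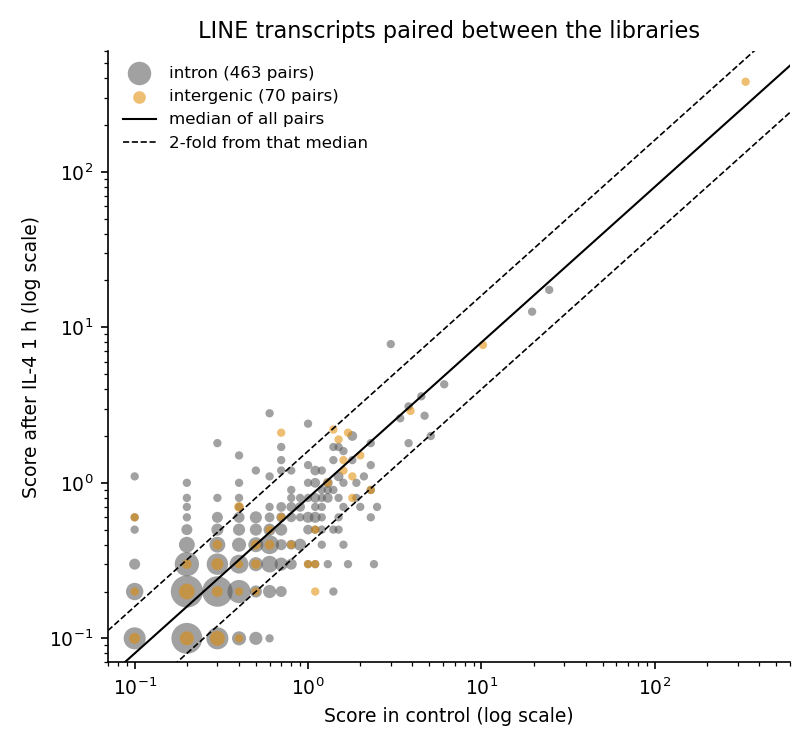
Score in control against score after IL-4 (both log scales) for 533 LINE pairs, with larger points where several pairs share the same scores, and lines for the median of all pairs and 2-fold from it. 57 pairs lie on or above the upper dashed line and 73 on or below the lower one, most of them at scores under 1.

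The pairs with the largest changes were ranked among the 244 with a score of at least 0.5 in 1 library. The largest increase was an Lx2 transcript in the first intron of Pde7b, a cAMP phosphodiesterase gene, which went from 0.1 to 1.1 (centred log2 ratio 3.78). An L1_Mus1 transcript in Mir99ahg, the noncoding host gene of miR-99a and let-7c, went from 0.3 to 1.8 (2.91). An L1M2 transcript in Pecam1, the gene of the adhesion molecule CD31, went from 0.1 to 0.6 (2.91). In Lair1, the gene of an inhibitory collagen receptor, Lx2B went from 0.1 to 0.6 (2.91) and Lx5b from 0.2 to 1.0 (2.64). The control scores of these 5 were 0.1 to 0.3, so rounding leaves wide ranges, from 3.13 to 4.85 for Pde7b and from 2.20 to 4.02 for Pecam1.

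The largest decrease was an Lx8b transcript in Aoah, the gene of the enzyme that inactivates lipopolysaccharide, which went from 2.4 to 0.3 (-2.68). An L1_Mus2 transcript in the kinase gene Vrk2 went from 1.4 to 0.2 (-2.49), and an L1Md_F2 transcript in Lrmda from 0.6 to 0.1 (-2.26). The L2b transcript in Slc6a6 went from 1.7 to 0.3 (-2.18). An intergenic Lx6 transcript at chr16:58754356-58754521, near Olfr172, went from 1.1 to 0.2 (-2.14). 4 of the 5 lay in a gene, and the other pairs of those genes had medians of -0.68 over 17 pairs in Aoah, 0.32 over 2 in Vrk2, -0.09 over 145 in Lrmda and -1.0 over 39 in Slc6a6. For the increases, the other pairs had medians of 0.91 over 18 in Pde7b and 1.81 over 29 in Mir99ahg, the 1 other pair in Pecam1 was at 1.74, and Lair1 had none. The LINE pairs were picked as the most extreme, so nothing is read from their distance to these medians.

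LINE pairs were set beside the other pairs of the same gene. For 373 LINE pairs in 231 genes with at least 3 other pairs, the LINE log2 ratio and the median ratio of the gene's other pairs had a Spearman rho of 0.43 and a Pearson r of 0.49. These points share both libraries and, within a gene, the same other pairs. The LINE ratio lay within 1 log2 unit of the gene's median in 289 of 373 (77.5%), and the median difference was 0. The 84 other LINE pairs differed from the rest of their gene by 1 unit or more. Around the median of all pairs, only 10.7% of the 533 LINE pairs were at least 2-fold higher and 13.7% lower. The share within 1 unit is therefore no measure of how closely LINE pairs follow their gene. Pairs without a LINE were not set beside their gene in this way.

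The number of LINE transcripts in a gene was read beside the number of its other transcripts. Same-strand LINE transcripts lay in 783 genes in control and 796 after IL-4, of which 422 were shared. Most genes held 1, but 29 genes in control and 61 after IL-4 held at least 5. In the 70 genes with at least 5 in either library, LINE transcripts went from 305 of 2626 transcripts (11.6%) to 570 of 4764 (12.0%). LINE transcripts became more numerous in 53 of the 70, fewer in 15 and equal in 2. Of the 53, 49 also gained other transcripts, and of the 15, 11 also lost other transcripts. Genes were picked for a high LINE count in either library, so these counts are a description.

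**Figure D3:**
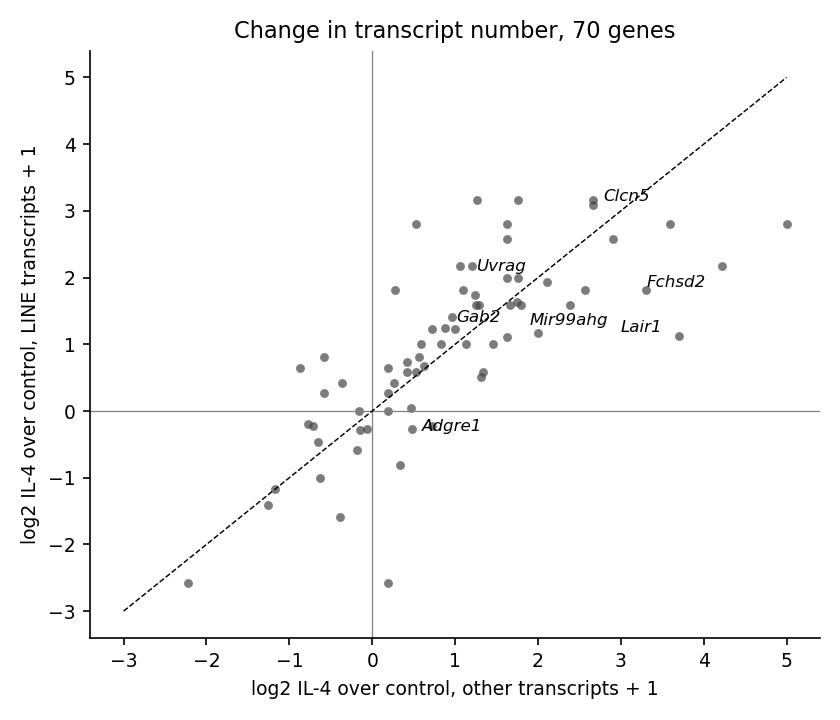
Change from control to IL-4 in the number of LINE transcripts against the change in the number of other transcripts, each as the log2 ratio of numbers with 1 added, for the 70 genes with at least 5 LINE transcripts in either library. The Spearman rho is 0.81 and the dashed line marks equal change. Both axes share the 2 libraries, and the IL-4 library had more transcripts overall.

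Adgre1, the gene of the macrophage surface marker F4/80, held the most LINE transcripts in both libraries. In control 35 of its 65 same-strand transcripts were LINE (53.8%), and after IL-4 36 of 78 were (46.2%). The gene spans chr17:57358691-57483527, and the files name its transcripts Emr1 or, toward its end, Vmn2r120. Its LINE transcripts carried 12 subfamily names in each library and scores of 0.1 to 1.5 in control and 0.1 to 1.3 after IL-4. Of its 26 LINE pairs, 4 were at least 2-fold higher and 0 lower, with a median centred log2 ratio of 0.32. Its 23 other pairs had a median of -0.09. No counterpart was found for 5 of the 35 control and 9 of the 36 IL-4 LINE transcripts of the gene. Over all transcripts the shares without a counterpart were 37.4% and 48.1%, and over all LINE transcripts 47.6% and 59.4%.

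**Figure D4:**
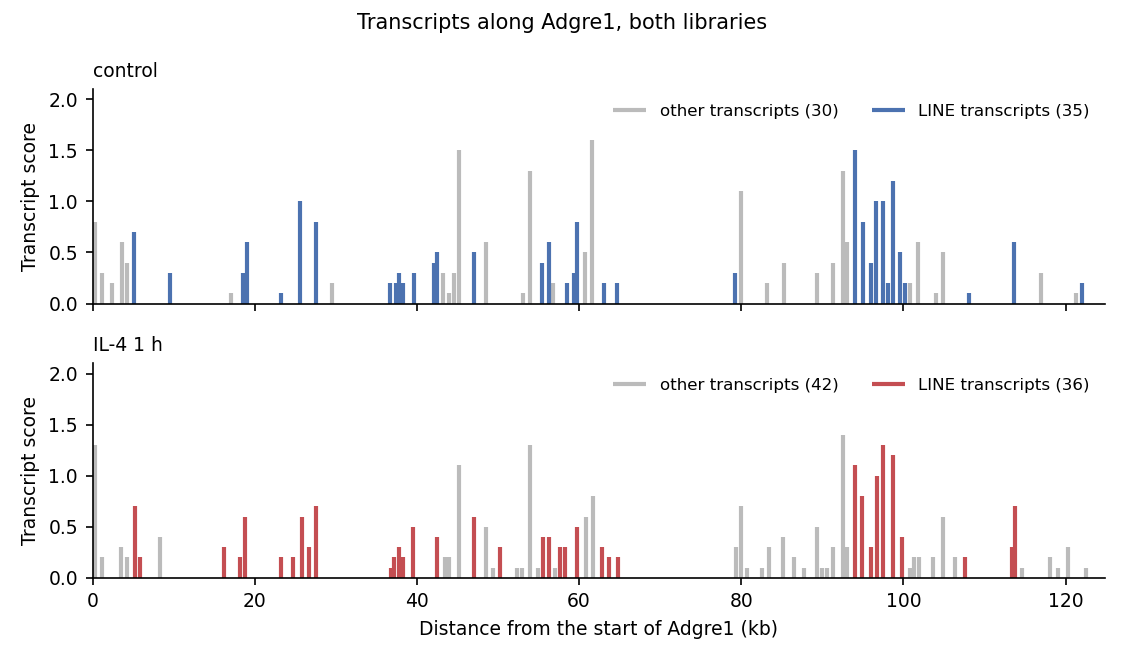
Scores of transcripts along Adgre1 by distance from the gene's start in kb, with LINE transcripts in colour and other transcripts in grey, in control (top) and after IL-4 (bottom). A cluster of LINE transcripts with scores up to 1.5 in control lies 90 to 100 kb from the start in both libraries. Between 65106 bp from the start and this cluster, other transcripts were called but only 1 LINE transcript in control and 0 after IL-4. Most LINE transcripts of the gene lie before that stretch in both libraries.

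Other genes gained LINE transcripts together with other transcripts. Mir99ahg went from 9 of 44 (20.5%) to 30 of 150 (20.0%). Gab2, the gene of a signalling adaptor, went from 10 of 54 to 25 of 107. Lair1 went from 10 of 10 to 23 of 35, and all 6 of its LINE pairs were at least 2-fold higher, with a median centred log2 ratio of 2.18. Lair1 was thus covered by LINE calls alone in control.

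A set of genes chosen after their values were seen showed the same. Uvrag, an autophagy gene, went from 5 of 31 transcripts to 22 of 137, a LINE share of 16.1% in both libraries. Fchsd2, a gene of membrane bending in endocytosis, went from 3 of 9 to 17 of 146. Clcn5 went from 1 of 9 to 16 of 72. Their other transcripts went from 26 to 115, from 6 to 129 and from 8 to 56. In these 3 genes, 20 of 22, 16 of 17 and 14 of 16 IL-4 LINE transcripts had no control counterpart. Over all IL-4 transcripts the share was 48.1%, and over all IL-4 LINE transcripts 59.4%. The 3 genes had only 31, 9 and 9 control transcripts, so a high share without a counterpart follows from their choice. Nothing is read from the distance to the overall shares. The counterparts of the other transcripts in these genes were not counted.

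Other genes near the top had smaller changes in number. St18, a zinc finger gene, had 11 of 37 and 15 of 35, so its LINE count rose while its other transcripts went from 26 to 20. Fgd4, a Cdc42 exchange factor gene, had 11 of 34 and 9 of 31. Kcnk13, a potassium channel gene, had 10 of 30 and 8 of 26. Slc9a9, an endosomal sodium-proton exchanger gene, had 11 of 101 and 15 of 123, and the ubiquitin ligase gene Wwp1 had 10 of 57 and 10 of 52. No 2-fold change was found in the LINE pairs of Fgd4, Kcnk13 or Wwp1, with 7, 5 and 6 pairs.

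**Figure D5:**
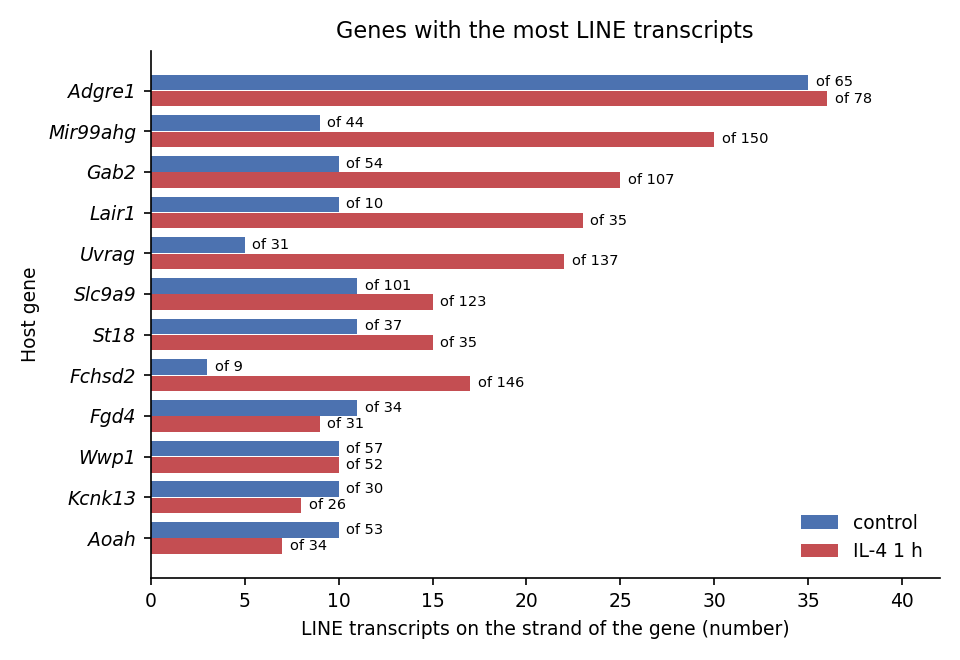
Number of same-strand LINE transcripts in each library for the 12 genes with the most in both libraries together, with the number of all same-strand transcripts of the gene beside each bar. Adgre1 leads in both libraries with 35 and 36, and Mir99ahg, Gab2, Lair1, Uvrag and Fchsd2 have more than 15 after IL-4.

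Genes that restrain L1 and genes of the IL-4 response were read by the highest-scoring transcript of their name, centred on the median of 8879 genes. The deposited annotation names the gene with the nearest start site, so a transcript of that name can lie outside the gene. Of all genes, 8.06% were at least 2-fold higher and 8.62% at least 2-fold lower. Among 16 genes of L1 chromatin silencing, 13 were measured in both libraries, with 3 higher and 0 lower. Trim28, the corepressor that brings histone methylation to retroelements, went from 0.3 to 0.6, the histone methyltransferase gene Suv39h2 from 0.3 to 0.5 and Cbx5, the gene of heterochromatin protein HP1 alpha, from 0.1 to 0.2. These scores are a few rounding steps, and the rounding ranges of the Suv39h2 and Cbx5 ratios fall to 0.74 and 0.38 on the log2 scale. The list's median was -0.04, against 0 for all genes.

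Among 16 genes acting on L1 RNA or cDNA, 13 were measured in both, with 1 higher and 2 lower and a median of -0.04. Apobec1, a cytidine deaminase gene, went from 6.5 to 1.0 (-2.32). Samhd1, the gene of a dNTP hydrolase that limits reverse transcription, went from 2.2 to 0.8 (-1.08), and Apobec3, another cytidine deaminase gene, from 0.2 to 0.4 (1.38). Samhd1 itself held an Lx6 transcript that scored 0.4 in control and 0.2 after IL-4.

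Among 20 IL-4 response genes, 13 had a transcript of their name in both, with 5 higher, 0 lower and a median of 0.60. For Irf4 the only such control transcript was a LINE outside the gene. For Batf3 none of the control transcripts lay in the gene on its strand. The ratios of Irf4 and Batf3 therefore do not measure these genes. Genes called in only 1 library have no ratio. Cish, Egr2 and Myc had 0 transcripts of their name in control and 10, 8 and 4 after IL-4. Arg1, Chil3 and Ccl24 had 0 in control and 1, 2 and 3 after IL-4, and Retnla had none in either. The list was drawn up with earlier results of these data known and is no independent evidence of direction. LINE transcripts in these genes numbered 1 in control, in Pparg, and 5 after IL-4. Mrc1, the mannose receptor gene, held 0 LINE transcripts of 21 in control and 3 of 97 after IL-4 (L1MB4, Lx5 and Lx6, up to 1.5), while its highest score went from 2.7 to 13.1. Il4ra held an L2b transcript at 0.6 and Batf3 an L3 transcript at 0.1, both after IL-4 only. A list of 10 genes known to be repressed by IL-4 had 8 with a transcript of their name in both, with 3 lower (Abca1, Clec4d and Tlr2) and 0 higher. Smad3 had 12 transcripts of its name in control and 0 after IL-4, and Lyz1 had 1 and 0, so neither had a ratio. For Il1b the only transcript in each library was an intergenic HAL1 LINE 66850 bp from its start site, so Il1b itself was not measured. Clec4d, a C-type lectin receptor gene, held an Lx2A1 transcript at 0.4 in control and none after IL-4. From a list of 3 genes known to be induced (Klf4, Hbegf and Edn1), only Klf4 was measured in both, at under 2-fold.

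The macrophage identity of the cells was checked by markers. The 6 macrophage markers all had transcripts of their name in both libraries, Csf1r at up to 5.6 and 4.6 and Cd68 at up to 5.8 and 7.3. Adgre1 reached 1.6 and 1.4, Itgam 1.3 and 0.9, Spi1 0.9 and 0.6, and Fcgr1 0.5 and 0.5. Of the Itgam-named transcripts, 3 of 6 in control and 2 of 7 after IL-4 were LINEs not in that gene on its strand. The lower of these scores overlap those of the other markers below. Of the markers of other cell types, 1 of 4 for T cells (Cd8a), 1 of 3 for B cells (Cd79a) and 1 of 3 for neutrophils (S100a8) had transcripts in each library, at 0.3 to 0.8. None of 3 fibroblast or 2 dendritic cell markers had any. The part of other cells in the LINE transcripts was not tested.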

How the data were processed

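The authors aligned the GRO-seq reads to mm10 with BWA 0.7.10, used SAMtools 0.1.19 and called and annotated transcripts with HOMER 4.2, per the labels and the study's methods. The deposited value of each transcript is a score, whose scaling to depth is not given in the sources used here. LINE transcripts were the transcripts of each library with LINE as the repeat class. Members, gene lists and rules were chosen with earlier results of these data known. Counterparts needed a same-strand overlap of 1 bp, pairs were mutually largest overlaps, and a 2-fold centred ratio was called. Host genes came from GENCODE M21. Named were the 5 highest scores, the 5 largest increases and decreases, the 5 highest without a counterpart, 3 L1Md and the 5 gene names with the most LINE transcripts. With 1 library per condition no test was made. Pairing was tested on simulated lists, copies of the control list with small shifts and unchanged lengths. Lengths differed between the real libraries, so the simulation does not show how well real pairs were found. Python 3.11.15 with pandas 2.3.3, numpy 2.4.6 and scipy 1.17.1 was used.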

Additional observations from a re-analysis of the deposited data

How the results depend on the processing

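Of 42 alternative values, 19 stayed near the value reported and 23 moved. With only transcripts of at least 200 bp, the LINE share was 2.61% in control and 3.23% after IL-4, by bases covered 2.72% and 3.05%, and with 1 transcript for each gene name 2.26% and 2.07%, the only setting in which the IL-4 share was the lower. With 21561 highest-scoring transcripts of each library the IL-4 share was 3.18%. The L1 share was 92.7% and 93.2% at scores of at least 0.3, and 85.1% and 87.9% at 200 bp or more. The share of LINE transcripts without a counterpart was 52.2% and 73.1% when the overlap had to cover 50% of the transcript. It was 32.9% and 30.9% at scores of at least 0.3, where the order of the libraries turned. Neither setting was worked out for all transcripts. Over the rounding range, 27 LINE pairs of 533 were at least 2-fold higher and 24 lower. With overlap of 50% of both, 35 of 387 were higher (9.04%, against 9.13% of all pairs) and 45 lower (11.6%, against 10.1%). At scores of at least 0.3 in both, 24 of 261 were higher (9.20%, against 7.43%) and 21 lower (8.05%, against 6.11%). Lower pairs outnumbered higher ones in the values reported, and this order turned over the rounding range and at scores of at least 0.3. Without centring 165 were lower (31.0%, against 27.8% of all pairs), and the median ratio was -0.42, against -0.32 for all pairs. By score multiplied by length, 79 LINE pairs were higher (14.8%, against 19.2% of all pairs) and 103 lower (19.3%, against 17.1%). At this setting all pairs were more often higher than lower, and LINE pairs more often lower. Leaving out a replicate was not possible with 1 library per condition. No paired analysis was possible because the result comes from no test. Scores in steps of 0.1 limit every ratio near the median score.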

Other observations

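LINE transcripts were unevenly spread over the chromosomes. On the X chromosome, which is rich in L1, LINEs made up 42 of 743 transcripts in control (5.65%, 4.21 to 7.55) and 56 of 832 after IL-4 (6.73%, 5.22 to 8.64). The Y chromosome had the highest shares on few transcripts, 6 of 28 in control (21.4%, 10.2 to 39.5) and 5 of 34 after IL-4 (14.7%, 6.45 to 30.1). Among the autosomes, the highest share was on chromosome 13 in control, at 4.66%, and on chromosome 7 after IL-4, at 5.12%. The lowest shares were on chromosome 5 in control, at 2.02%, and on chromosome 8 after IL-4, at 1.75%. No LINE transcript was called on the mitochondrial genome.

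Genes that lost LINE transcripts after IL-4 were fewer and were chosen here after their values were seen. Fyb, an adaptor gene of immune cells, went from 8 LINE and 44 other transcripts to 3 and 19. Osbpl8, a lipid transfer gene, went from 7 and 78 to 2 and 32, and the G protein gene Gna12 from 5 and 27 to 0 and 5. Sash1, a scaffold gene, went from 5 LINE transcripts to 0 while its other transcripts went from 72 to 82.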
